A study of Homo sapiens with 16 samples.

Results

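Doxycycline induction of a short hairpin RNA (shRNA) against PRRX1 was followed in 6 pairs of libraries, 3 from Hs578 cells and 3 from TT642 cells. These pairs use 12 of the 16 RNA sequencing libraries of the series. They were chosen by their labels: every derived line that carries hairpin 1, 2 or 3 (shPRRX1), with doxycycline (DOX, at 3 µg/ml) and without it, matched by line and hairpin number. The genes of interest are those that moved the same way in all 6 pairs. The other 4 libraries are the parental cells of each line, which carry no hairpin, with and without DOX. They form 1 pair per line and are given beside the hairpin pairs.

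All hairpin libraries share the inducible construct whether or not DOX was given, so the comparison is induced against uninduced. The replicates of a group are 3 different hairpins. Nothing in the labels says that libraries of a line came from separate cultures, so each p-value reflects the scatter among these libraries alone. That scatter mixes differences between hairpins with technical variation, which cannot be told apart. No treatment time or hairpin sequence is given in the labels. Hs578 is labelled as breast cancer cells. TT642 is labelled as rhabdoid tumor cells, whereas the series describes its lines as triple-negative breast cancer. In both lines ESR1, PGR, EPCAM and CDH1 stood at or under 0.438 FPKM (fragments per kilobase of transcript, scaled to library size), and VIM at 1830 to 5690 FPKM. Other markers differed between the lines. The epithelial keratins KRT8 and KRT18 stood at 19.4 to 47.3 and 109 to 253 FPKM in Hs578. They were at most 2.51 and 0.938 FPKM in TT642. The mesenchymal gene FN1 was at 1250 to 2380 FPKM in Hs578 and 0.019 to 0.629 in TT642. CDH2 was at 55.7 to 91.4 FPKM in Hs578 and 16.3 to 123 in TT642. SMARCB1, whose loss defines most rhabdoid tumours, was at 17.2 to 24.3 FPKM in TT642 against 48.3 to 63.2 in Hs578. ERBB2 was at 29.9 to 50.9 FPKM in TT642 and at 11.4 to 20.3 in Hs578.

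PRRX1 encodes a paired-type homeodomain transcription factor of embryonic limb, craniofacial and other connective tissue mesenchyme. In adult tissue it marks fibroblasts, and in tumours it has been studied as a regulator of the epithelial to mesenchymal transition. An shRNA is processed into a small interfering RNA that guides degradation of the matching transcript, and in a doxycycline-inducible vector it is made only while the antibiotic is present. Doxycycline itself also blocks mitochondrial translation, so parental cells given the drug show what it does without a hairpin.

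PRRX1 fell in all 6 hairpin pairs and not in the parental pairs. Levels are given as library-size-scaled counts (CPM) adjusted by the trimmed mean of M-values (TMM). In Hs578 the uninduced libraries of hairpins 1, 2 and 3 held PRRX1 at 291, 227 and 262 CPM, and the induced ones at 37.1, 72.8 and 51.0 CPM. In TT642 the uninduced libraries held 1213, 1409 and 1301 CPM and the induced ones 265, 184 and 513 CPM. The induced and uninduced libraries did not overlap in either line. The level left after induction was 12.7%, 32.1% and 19.5% in Hs578 and 21.8%, 13% and 39.4% in TT642, in the order of the hairpins. Hairpin 1 thus left least in Hs578 and hairpin 2 in TT642. Parental cells held 290 and 298 CPM without and with DOX in Hs578, and 1484 and 1533 CPM in TT642, which is 103% left in each. The mean log2 fold change over both lines was -2.24 (SE 0.283, edgeR quasi-likelihood test on pairs, Benjamini-Hochberg adjusted p = 0.0069), a level 4.72-fold lower. With hairpin 1 left out of both lines the value was -2.07 and the adjusted p 0.088. The paralogue PRRX2 did not pass the test (log2 fold change 0.09, SE 0.207, adjusted p = 0.84). It was at 21.4, 22.5 and 25.2 CPM uninduced and 19.2, 54.1 and 45.6 CPM induced in Hs578. TT642 held it at 71.2, 54.7 and 56.3 CPM uninduced and 49.8, 27.5 and 54.3 CPM induced.

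**Figure D1:**
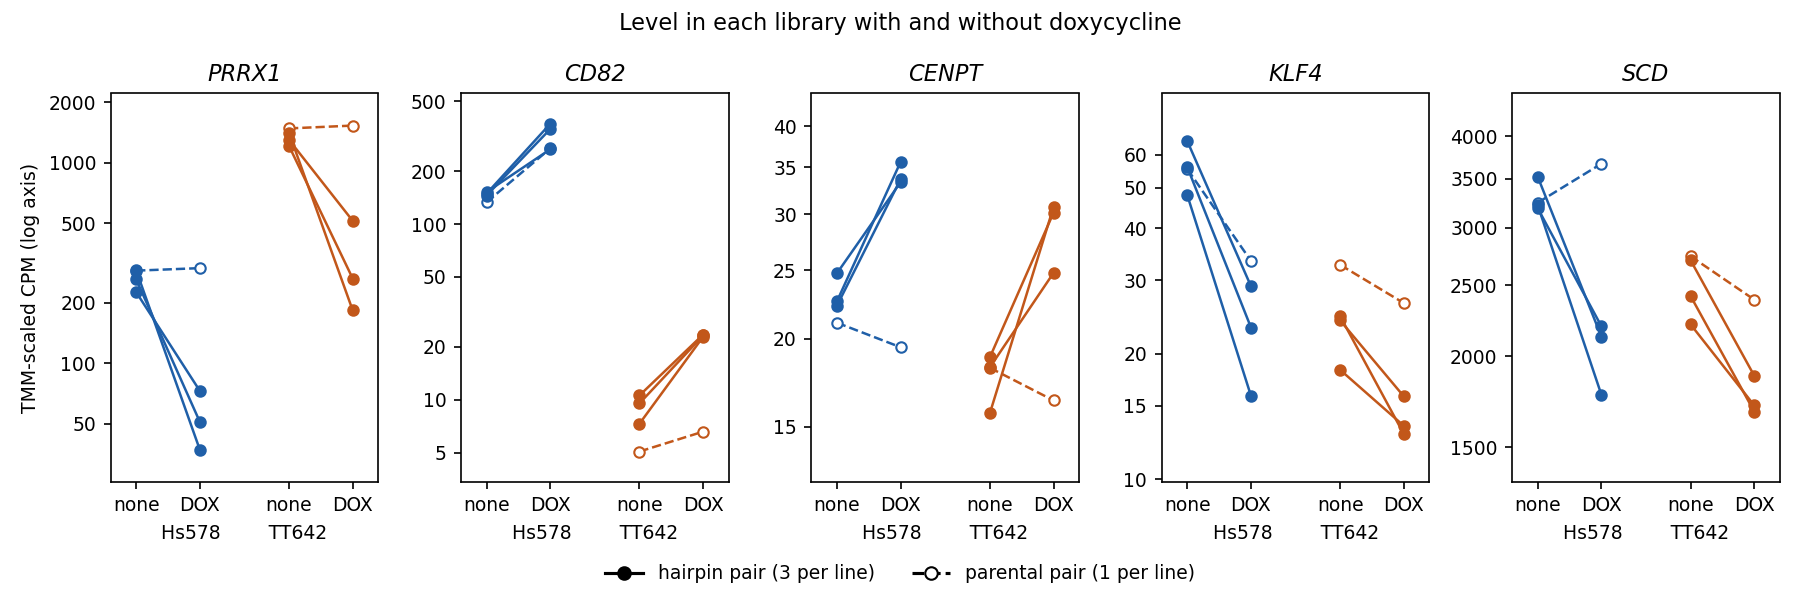
TMM-scaled CPM (log axis) of PRRX1, CD82, CENPT, KLF4 and SCD in each library without and with DOX, Hs578 in blue and TT642 in orange. Each line joins a pair, filled for the 3 hairpins of a line and open with a dashed line for parental cells. PRRX1 fell in the 6 hairpin pairs and stood at 103% in both parental pairs, whereas CD82 was also higher with DOX in the parental pairs.

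Of 14035 genes tested, 1802 had the same sign of DOX over no DOX in all 6 hairpin pairs. Of these, 1032 (7.35% of the genes tested) were higher and 770 (5.49%) lower in every pair. For the mean effect over both lines 2981 genes were called at an adjusted p under 0.05 (21.2%), with 1556 higher (11.1%) and 1425 lower (10.2%). The genes described here are the 1233 that met both conditions, 715 higher (5.09%) and 518 lower (3.69%). Most of these changes were small: 21 of the 715 and 16 of the 518 reached a log2 fold change of 1 in size, and the medians were 0.34 and -0.33. Another 1140 called genes shared a sign in 5 of 6 pairs. The libraries of the groups did not overlap in either line for 342 of the 715 and 205 of the 518, beside 2.94% and 1.79% of all genes tested that were separated that way upward and downward. In Hs578 642 and 443 were separated, beside 22.1% and 21.9% of all genes, and in TT642 392 and 246, beside 8.54% and 6.31%. The 715 and 518 were selected on these same libraries, so larger shares than over all genes follow from the selection.

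The share of rising genes depended on how libraries were scaled. It was 58.0% of the 1233 with TMM scaling, 45.5% (584 of 1284) with relative log expression scaling and 34.1% (345 of 1012) with limma on log2(FPKM + 1). Of the genes with the same sign in all 6 pairs, 57.3% were higher with TMM, 45.4% with relative log expression, 42.0% with total counts and 34.4% with FPKM. DESeq2 called 2068 genes for the mean effect, 40.5% of them higher against 52.2% in edgeR. All 1233 genes kept their direction with relative log expression scaling and with DESeq2, and 1216 did with limma on log2(FPKM + 1). Fewer stayed called, at 1178, 876 and 767 in the same order. A fit of the 12 hairpin libraries with 1 effect common to both lines called 483 genes. In that fit 316 of the 1233 stayed called. ACTA2, TENM2, EFEMP2 and KIAA1211, named below, were among those not called in it.

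To show the sequence in front of the targeted gene and of the 4 genes given as markers of the response, the 250 bases before each gene's start are printed 5′ to 3′ (RefSeq, GRCh38.p14, on the gene's strand, capitals mark CCAAT or its reverse complement ATTGG).
PRRX1, chr1:170663881-170664130, + strand: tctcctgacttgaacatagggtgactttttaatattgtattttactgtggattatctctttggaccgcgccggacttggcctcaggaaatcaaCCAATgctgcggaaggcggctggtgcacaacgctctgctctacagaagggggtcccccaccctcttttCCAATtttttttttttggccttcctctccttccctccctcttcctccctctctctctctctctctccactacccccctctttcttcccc
CD82, chr11:44565413-44565662, + strand: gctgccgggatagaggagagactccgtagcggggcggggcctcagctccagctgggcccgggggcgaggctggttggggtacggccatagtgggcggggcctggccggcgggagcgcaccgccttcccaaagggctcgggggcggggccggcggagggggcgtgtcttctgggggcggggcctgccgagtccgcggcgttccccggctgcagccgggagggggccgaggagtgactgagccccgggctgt
KLF4, chr9:107489770-107490019, - strand: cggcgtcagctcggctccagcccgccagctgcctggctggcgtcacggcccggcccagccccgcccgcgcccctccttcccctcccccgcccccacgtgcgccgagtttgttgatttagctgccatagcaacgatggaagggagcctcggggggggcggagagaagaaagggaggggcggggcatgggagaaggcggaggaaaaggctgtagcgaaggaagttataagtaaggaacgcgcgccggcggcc
CENPT, chr16:67847694-67847943, - strand: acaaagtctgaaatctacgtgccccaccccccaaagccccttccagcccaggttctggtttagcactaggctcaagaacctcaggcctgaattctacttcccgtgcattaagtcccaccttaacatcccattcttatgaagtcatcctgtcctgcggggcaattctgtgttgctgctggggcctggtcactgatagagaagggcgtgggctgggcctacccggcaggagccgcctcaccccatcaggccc
SCD, chr10:100346983-100347232, + strand: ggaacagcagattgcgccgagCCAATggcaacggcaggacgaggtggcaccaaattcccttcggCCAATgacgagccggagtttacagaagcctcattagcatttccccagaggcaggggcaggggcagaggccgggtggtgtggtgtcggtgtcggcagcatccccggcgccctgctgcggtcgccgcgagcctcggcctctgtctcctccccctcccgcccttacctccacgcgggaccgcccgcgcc
The homeodomain core TAATTA and the paired-type palindrome (TAAT and ATTA with 3 bases of any kind between them), which read the same on both strands, matched none of these 5 stretches. Promoters of 300 bases (250 before to 50 after the start) were matched for 588 of the 715 rising and 425 of the 518 falling genes, and for 11310 of the 14035 tested. TAATTA was in 3 (0.51%) of the rising, 3 (0.706%) of the falling and 227 (2.01%) of all matched promoters. The palindrome was in 1, 1 and 13 of them. The median GC content of the 250 bases before the start was 66.8%, 67.2% and 64.8% in the same order. Whether it bears on the shares was not tested. The promoters of OSTC, RPSAP58 and PMF1, which rose, and of HDAC4, ZWILCH, AGFG1 and PCDHGB4, which fell, held a match. CCAAT, a motif chosen after the data were seen, was in 33.0%, 33.6% and 36.3% of the 3 sets, and SCD and PRRX1 hold 2 matches each.

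CD82, a tetraspanin known as a suppressor of metastasis, rose in every pair. It was at 152, 149 and 145 CPM uninduced and 267, 372 and 348 CPM induced in Hs578, hairpins 1 to 3. The TT642 levels were 9.52, 7.29 and 10.6 CPM uninduced and 23.2, 22.8 and 23.5 CPM induced. The induced libraries lay above all uninduced ones in both lines, though the level in TT642 stayed far under that in Hs578. The mean log2 fold change was 1.24 (SE 0.084, adjusted p = 6.4e-05), a 2.37-fold higher level, with 1.13 in Hs578 and 1.36 in TT642. Parental CD82 was also higher with DOX, at 133 and 270 CPM in Hs578 and 5.07 and 6.58 CPM in TT642. The effect net of the parental pairs was 0.55 (SE 0.182, unadjusted p = 0.011, adjusted p = 0.43).

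CENPT, an inner kinetochore protein that binds centromeric DNA, rose in every hairpin pair and in neither parental pair. In Hs578 it was at 22.3, 24.8 and 22.6 CPM uninduced and 33.7, 33.3 and 35.6 CPM induced. Cells of TT642 held 18.2, 15.7 and 18.8 CPM uninduced and 24.8, 30.7 and 30.2 CPM induced. No induced library overlapped an uninduced one. The mean log2 fold change was 0.63 (SE 0.077, adjusted p = 0.00062). The parental values were 21.1 and 19.4 CPM without and with DOX in Hs578, and 18.2 and 16.3 CPM in TT642. The net effect was 0.77 (SE 0.157, unadjusted p = 0.00033, adjusted p = 0.34).

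KLF4, a zinc finger transcription factor of epithelial barrier and stem cells, fell in every pair, and SCD, the stearoyl-CoA desaturase that makes monounsaturated fatty acids, did too. KLF4 was at 56.1, 64.7 and 48.0 CPM uninduced and 23.1, 29.0 and 15.8 CPM induced in Hs578. In TT642 it was at 24.0, 24.6 and 18.3 CPM uninduced and 15.8, 12.8 and 13.4 CPM induced. Neither line showed overlap, and the mean log2 fold change was -1.003 (SE 0.082, adjusted p = 0.00011). Parental KLF4 was lower with DOX as well, at 55.5 and 33.4 CPM in Hs578 and at 32.7 and 26.5 CPM in TT642. SCD was at 3523, 3190 and 3220 CPM uninduced and 2127, 2198 and 1771 CPM induced in Hs578. TT642 held it at 2707, 2418 and 2211 CPM uninduced and 1880, 1679 and 1712 CPM induced. The groups did not overlap, and the mean log2 fold change was -0.59 (SE 0.067, adjusted p = 0.00053). In the parental pairs SCD was at 3245 and 3670 CPM in Hs578 and at 2741 and 2390 CPM in TT642, opposite in sign between the lines.

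Among genes whose mean log2 CPM was not under 2, the rising genes with the largest mean effects were COL1A1, CD82, TGFBI, ACTA2, SERPING1, TENM2, COL1A2, COL5A1, EFEMP2 and SLC22A17. Several are matrix proteins: COL1A1 and COL1A2 are the chains of type I collagen, COL5A1 a chain of type V collagen, TGFBI a secreted adhesion protein, and EFEMP2 fibulin-4. COL1A1 was at 2336, 2046 and 2159 CPM uninduced and 6721, 8701 and 12260 CPM induced in Hs578. The TT642 levels were 177, 379 and 157 CPM uninduced and 237, 1129 and 263 CPM induced. The groups were separate in Hs578 and overlapped in TT642, where the uninduced library of hairpin 2 exceeded the induced ones of hairpins 1 and 3. Its mean log2 fold change was 1.48 (SE 0.180, adjusted p = 0.0027), and the parental log2 ratios were 1.69 in Hs578 and 0.57 in TT642. TGFBI was at 749, 691 and 734 CPM uninduced and 2117, 3065 and 3214 CPM induced in Hs578. Cells of TT642 held 344, 361 and 238 CPM uninduced and 416, 611 and 333 CPM induced, where the groups overlapped. Its mean log2 fold change was 1.22 (SE 0.095, adjusted p = 0.00011), with parental log2 ratios of 1.02 and -0.01. COL1A2 was abundant in Hs578 only, at 2202 to 2778 CPM uninduced, whereas its uninduced level in TT642 was 0.454 to 1.36 CPM. Its mean log2 fold change was 0.90 (SE 0.166, adjusted p = 0.0038). The parental log2 ratios of COL1A2 were 1.67 in Hs578 and 0.78 in TT642, and its net effect was -0.36.

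Of the other rising genes, ACTA2, smooth muscle actin, had a mean log2 fold change of 1.02 and TENM2, a teneurin adhesion protein, one of 0.95. SERPING1, the C1 inhibitor of complement, stood at 0.97, and SLC22A17, a lipocalin-2 receptor, at 0.89. The uninduced level of SERPING1 in Hs578 was 0.792 to 1.10 CPM. COL5A1 and EFEMP2 both stood at 0.90. In the Hs578 parental pair all 10 of these genes were higher with DOX, by log2 ratios of 1.02 to 1.69. In the TT642 parental pair they ranged from -0.18 to 0.78. ACTA2 lost its call without hairpin 2 (adjusted p = 0.066), and SLC22A17 did too (adjusted p = 0.060). SERPINF1, the secreted anti-angiogenic factor PEDF, was named for rising with DOX in both parental pairs. Its mean log2 fold change was 0.89 (adjusted p = 0.0085). The call was lost under 4 alternatives, among them leaving out hairpin 3. The parental log2 ratios of SERPINF1 were 3.046 in Hs578 and 0.3393 in TT642, and its net effect was -1.104. In Hs578 the parental ratio exceeded that of every hairpin pair, and in TT642 it lay within their range. In Hs578 its uninduced level was 0.23 to 0.35 CPM.

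Above the same level, the falling genes with the largest mean effects were PRRX1, ZNF704, GPR56, SOX9, KLF4, MMP1, FST, KIAA1211, NAV2 and SFRP1. GPR56, an adhesion G protein-coupled receptor, was at 110, 123 and 116 CPM uninduced and 59.0, 83.3 and 35.1 CPM induced in Hs578. In TT642 it was at 40.7, 30.6 and 32.4 CPM uninduced and 15.7, 12.3 and 17.9 CPM induced. The groups were separate in both lines, and the mean log2 fold change was -1.11 (SE 0.155, adjusted p = 0.0041), with parental log2 ratios of -0.24 in Hs578 and -0.02 in TT642. SOX9, a transcription factor of cartilage and progenitor cells, was at 136, 156 and 113 CPM uninduced and 96.2, 75.2 and 52.2 CPM induced in Hs578. TT642 held it at 3.63, 1.85 and 2.45 CPM uninduced and 2.05, 0.372 and 1.15 CPM induced. SOX9 levels were separate in Hs578 and overlapped in TT642, and the mean log2 fold change was -1.04 (SE 0.158, adjusted p = 0.0022), with parental log2 ratios of -0.18 and -0.84. SFRP1, a secreted antagonist of Wnt ligands, was at 437, 328 and 427 CPM uninduced and 164, 209 and 138 CPM induced in Hs578. The TT642 levels were 75.7, 62.3 and 82.1 CPM uninduced and 53.1, 50.6 and 59.0 CPM induced. The groups did not overlap, the mean log2 fold change was -0.83 (SE 0.115, adjusted p = 0.0024), and the parental log2 ratios were 0.02 and -0.32.

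The zinc finger gene ZNF704 had a mean log2 fold change of -1.17, but its level in TT642 was 0.454 to 1.17 CPM uninduced, and the call was lost without hairpin 2 (adjusted p = 0.19). MMP1, interstitial collagenase, stood at -0.95, FST, the activin antagonist follistatin, at -0.89 (not called under 5 alternatives), and KIAA1211 at -0.88. NAV2, a neuron navigator protein, had a mean log2 fold change of -0.87 (SE 0.072, adjusted p = 0.00011), and parental log2 ratios of -0.97 and -0.33 (edgeR adjusted p of the mean parental effect 0.039). Without the pair as a block MMP1, FST and NAV2 were not called, and NAV2 had an adjusted p of 0.086. The uninduced level of NAV2 in TT642 ran from 9.87 CPM in hairpin 2 to 34.5 CPM in hairpin 3, and each fell within its own pair. GPR56 had an adjusted p of 0.051 without hairpin 1.

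In the parental pairs most of these genes moved in the same direction as in the hairpin pairs, more often so in Hs578. Of the 715 rising genes, 625 (87.4%) were higher with DOX in the Hs578 parental pair, 526 (73.6%) in that of TT642 and 465 (65.0%) in both. Of all genes tested, 48.4%, 49.9% and 26.3% were. Of the 518 falling genes, 443 (85.5%), 364 (70.3%) and 318 (61.4%) were lower. The median log2 ratio of the rising genes was 0.39 in the Hs578 parental pair, beside 0.38, 0.50 and 0.51 in hairpins 1 to 3. In TT642 it was 0.07 in the parental pair and 0.16, 0.28 and 0.12 in the hairpin pairs. For the falling genes the parental median was -0.39 beside -0.42, -0.44 and -0.45 in Hs578, and -0.06 beside -0.21, -0.27 and -0.11 in TT642. The parental pair of Hs578 thus shifted these genes about as far as the hairpin pairs did, while that of TT642 shifted them less. The parental pairs are single, so these medians have no replicate error.

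Parental log2 ratios were under 0.2 in size in both lines for 145 rising (20.3%) and 90 falling genes (17.4%), beside 26.2% of all genes tested. NUTF2, which carries the GTPase Ran into the nucleus, was at 108, 129 and 120 CPM uninduced and 188, 221 and 205 CPM induced in Hs578. Cells of TT642 held 111, 110 and 103 CPM uninduced and 143, 143 and 134 CPM induced. The groups did not overlap, and the 3 hairpins gave log2 ratios of 0.77 to 0.79 in Hs578 and 0.36 to 0.38 in TT642. Its parental levels were 117 and 119 CPM in Hs578 and 118 and 119 CPM in TT642. The mean log2 fold change was 0.58 (SE 0.048, adjusted p = 0.00011) and the net effect 0.56 (SE 0.097, unadjusted p = 7.6e-05, adjusted p = 0.29). MB21D2 stood at 0.61, TOR2A, a torsin ATPase, at 0.58, and TMEM175, a lysosomal potassium channel, at 0.51. MT-CYB, the cytochrome b of mitochondrial complex III, stood at 0.71, and its call was lost under 7 alternatives, among them leaving out Hs578 hairpin 2, Hs578 hairpin 3 or TT642 hairpin 2. TOR2A and TMEM175 were not called by DESeq2, and MB21D2 was not called without hairpin 1.

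Among the falling genes with small parental ratios, HEY1, a Notch target and transcriptional repressor, had a mean log2 fold change of -0.83 (SE 0.116, adjusted p = 0.0010). HEY1 was at 6.97, 6.52 and 7.95 CPM uninduced and 4.76, 4.37 and 4.85 CPM induced in Hs578. In TT642 it was at 6.18, 3.4 and 7.84 CPM uninduced and 2.89, 1.26 and 4.54 CPM induced, so its groups overlapped there. It was not called without the pair as a block (adjusted p = 0.058). PAQR5, a membrane progestin receptor, was at 81.4, 67.5 and 75.8 CPM uninduced and 43.8, 56.5 and 43.3 CPM induced in Hs578. TT642 held it at 34.6, 26.7 and 30.8 CPM uninduced and 21.3, 15.6 and 25.1 CPM induced. PAQR5 groups were separate in both lines, and its mean log2 fold change was -0.62 (SE 0.092, adjusted p = 0.0017), with parental log2 ratios of 0.12 and -0.10. SLC6A15, an amino acid transporter, stood at -0.79, with calls lost without hairpin 1 or hairpin 2, and CHL1, a cell adhesion molecule of the L1 family, at -0.61. The uninduced level of SLC6A15 in Hs578 was 0.634 to 0.930 CPM. CHL1 rested on Hs578 hairpins 1 and 3, with log2 ratios of -1.45 and -1.58 beside -0.05 to -0.27 in the other 4 pairs. It lost its call under 10 alternatives.

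At the other end, 48 rising (6.71%) and 24 falling genes (4.63%) had parental log2 ratios of at least 0.3 in the same direction in both lines, beside 3.9% and 2.6% of all genes higher or lower in that way, and 0 of either set had both at least 0.3 in the opposite direction. The rising ones include COL1A1, CD82, COL1A2, COL5A1, SLC22A17 and SERPINF1. The falling ones include EGFR, the epidermal growth factor receptor, SLC30A1, a zinc exporter, GRB10, an adaptor of insulin receptor signalling, and the histone gene HIST1H2AC. EGFR had a mean log2 fold change of -0.71, with -0.71 in each line and parental log2 ratios of -0.83 and -0.37. It was not called without hairpin 1 (adjusted p = 0.085). SLC30A1 stood at -0.63, GRB10 at -0.62 and HIST1H2AC at -0.64, with net effects of 0.12, 0.21 and -0.03.

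**Figure D2:**
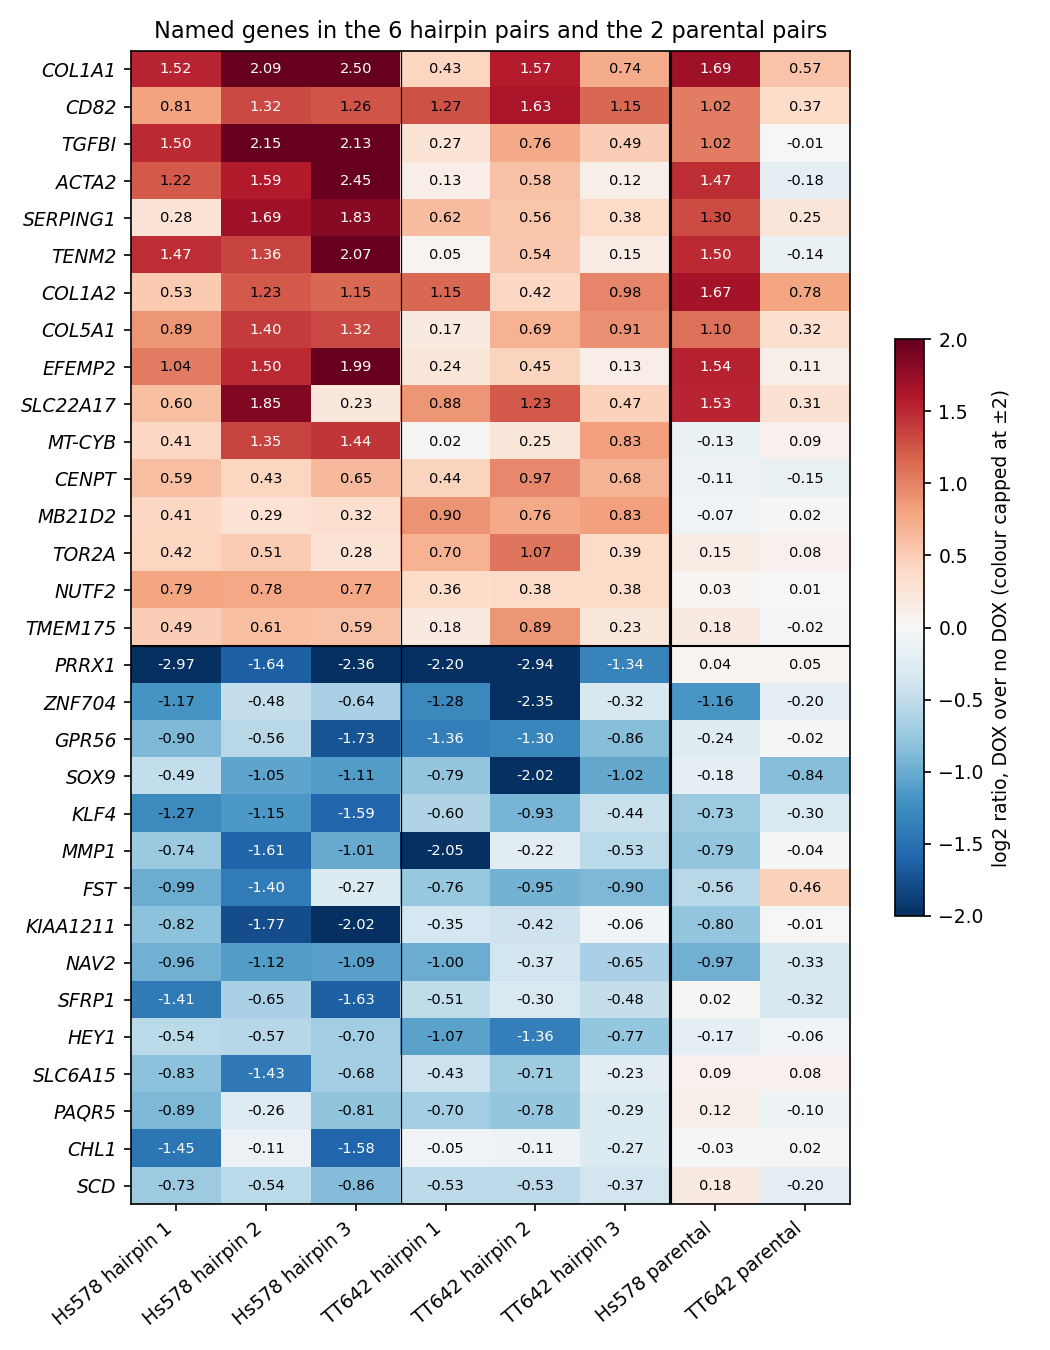
Log2 ratio of DOX over no DOX in each of the 6 hairpin pairs (left of the thick line) and the 2 parental pairs (right), for the rising genes (upper block) and falling genes (lower block) with the largest mean effects at a mean log2 CPM not under 2 and those with parental ratios under 0.2 in size. Red is higher and blue lower with DOX. COL1A1 and TENM2 are red in the Hs578 parental pair as well, whereas CENPT, NUTF2 and PRRX1 are near 0 in both parental pairs.

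For the effect net of DOX in parental cells 0 genes (0%) were called by edgeR, with 1257 at an unadjusted p under 0.05 and a smallest adjusted p of 0.289. PRRX1 had a net log2 fold change of -2.28 (SE 0.542, unadjusted p = 0.008, adjusted p = 0.41). DESeq2 called 20 genes for it, 5 higher and 15 lower, among them PRRX1, SCD, GPR56, NR4A2, NUTF2 and TGFBI. Each parental pair is fitted exactly, so this test assumes that parental pairs vary like hairpin pairs. The mean parental effect was called for 163 genes (1.16%), of which 34 were among the 715 rising and 28 among the 518 falling genes.

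Gene lists were described by the share of tested members called, beside 21.2% of all genes, and by the median mean effect, beside 0 over all genes. Called members that also moved the same way in all 6 pairs stand beside 5.09% (higher) and 3.69% (lower) of all genes. The share called was 12.5% in the p53 target list, 13.9% in DNA replication, 15.6% in interferon-stimulated and 18.2% in centromere and kinetochore genes. Mesenchymal transcription factors had 3.57%, and none of these lists is above the share of all genes. The immediate early and SWI/SNF lists, at 21.7% each, and the mitosis list, at 24.2%, were near it. Of 38 genes for collagens and matrix proteins 13 were higher and 1 lower, with a median log2 fold change of 0.42 (0.23 with FPKM). COL1A1, COL1A2, COL3A1, COL5A1, COL5A2, SPARC, LUM, TGFBI and MFAP2 rose in all 6 pairs, by 1.48, 0.90, 0.88, 0.90, 0.45, 0.76, 0.88, 1.22 and 0.56. The list's median ratio was 0.86 in the Hs578 parental pair and 0.11 in that of TT642. FBN2, a fibrillin, was the member that fell (-0.40). Of 21 actin and smooth muscle contractile genes 10 were higher and 2 lower, with a median of 0.44 with TMM and 0.11 with FPKM. The median was 0.43 in Hs578 and 0.08 in TT642, beside parental medians of 0.48 and -0.16. ACTA2, CNN1, CNN2, MYL6, MYL9 and TPM1 rose in all 6 pairs, and CNN3 and MYLK, the myosin light chain kinase, fell in all 6. CNN1 was scarce, at 0.115 to 0.174 CPM uninduced in Hs578, with a mean log2 fold change of 1.48. Its parental log2 ratios were 2.94 in Hs578 and 1.03 in TT642, and its net effect was -2.44. Of 23 TGF-beta targets 5 were higher and 1 lower, with TGFBI, TGFB1, LTBP3 and TGFB1I1 rising in all 6 pairs. The median of this list was 0.03 with TMM and -0.03 with FPKM. Of 23 mesenchymal cell genes 6 were higher and 2 lower, with SPARC, MMP2, ITGA5, LOXL2 and FSTL1 rising and NT5E (CD73) falling in all 6 pairs. Without the pair as a block MMP2, NT5E and TGFB1I1 were not called, and NT5E lost its call under 9 alternatives in all. Limma on FPKM called neither MMP2 nor TGFB1I1, and the lowest log2 fold change of MMP2 over the alternatives was 0.017. By FPKM MMP2 fell in hairpins 1 and 3 of both lines, in Hs578 from 231 to 219 and from 238 to 198. Its uninduced level in TT642 was 0.535 to 2.06 CPM.

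In the lipid synthesis lists more genes were called lower than higher. Of 18 fatty acid synthesis and desaturation genes 10 were called lower and 0 higher (median -0.26), and SCD, FASN, ACACA and FADS1 fell in all 6 pairs. FASN, fatty acid synthase, was at 792, 658 and 715 CPM uninduced and 521, 450 and 435 CPM induced in Hs578. The TT642 levels were 469, 383 and 445 CPM uninduced and 317, 382 and 374 CPM induced. FASN was separate in both lines, but in TT642 the pair of hairpin 2 hardly differed. Its mean log2 fold change was -0.45 (SE 0.072, adjusted p = 0.0019), and the parental log2 ratios were -0.30 and -0.23. Of 24 cholesterol synthesis and uptake genes 11 were lower and 1, PMVK, higher (median -0.21). SQLE, squalene epoxidase, HMGCS1, IDI1 and ACAT2 were among those that fell in all 6 pairs, by 0.39, 0.35, 0.26 and 0.28 on the log2 scale. The median of the fatty acid list was -0.40 in Hs578 and -0.07 in TT642, beside parental medians of -0.17 and -0.07. That of the cholesterol list was -0.34 and -0.06, beside parental medians of -0.05 and -0.05. Of the matched promoters of the tested lipid genes 22 of 34 (64.7%) held CCAAT, beside 36.3% of all matched promoters. Of the 15 belonging to genes called lower 7 (46.7%) did, a smaller share than over the tested lipid genes.

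Of 26 tetraspanins, membrane proteins that organise adhesion and signalling partners, 8 were higher and 1, CD9, lower, with a median of 0.27 with TMM and 0.06 with FPKM. The median was 0.24 in Hs578 and 0.22 in TT642, beside parental medians of 0.27 and 0. CD82, CD81, CD63, TSPAN4 and TSPAN9 rose in all 6 pairs, by 1.24, 0.45, 0.22, 0.31 and 0.25 on the log2 scale. CD81 was at 359, 384 and 386 CPM uninduced and 539, 658 and 617 CPM induced in Hs578. In TT642 CD81 was at 134, 130 and 136 CPM uninduced and 150, 177 and 144 CPM induced, again without overlap. Parental CD81 had log2 ratios of 0.94 in Hs578 and 0.11 in TT642 (edgeR adjusted p of the mean parental effect 0.041). Of 22 constitutive centromere and kinetochore proteins 2 were higher, CENPT and PMF1, and 2 lower, CENPI and CENPP, with a median of -0.06.

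Of 23 immediate early and KLF factors 5 were lower and 0 higher (median -0.14), and KLF4, NR4A2 and NR4A3 fell in all 6 pairs. NR4A2 and NR4A3 are orphan nuclear receptors induced rapidly by stimuli. NR4A2 was at 6.16, 4.21 and 2.88 CPM uninduced and 2.72, 3.05 and 2.07 CPM induced in Hs578. Cells of TT642 held 273, 257 and 284 CPM uninduced and 200, 135 and 221 CPM induced. It overlapped in Hs578, where it was low, and was separate in TT642, with a mean log2 fold change of -0.66 (SE 0.120, adjusted p = 0.0040). The parental log2 ratio of NR4A2 was 0.75 in Hs578, opposite in sign, and -0.14 in TT642. NR4A3 had a mean of -1.42, which was -2.39 in Hs578 and -0.46 in TT642, with parental log2 ratios of -1.004 and -1.006. Of 28 mesenchymal transcription factors 1 was called, SOX9, and the median was -0.10. TWIST1 (0.24, adjusted p = 0.33), SNAI2 (0.16, adjusted p = 0.53), ZEB1 (-0.24, adjusted p = 0.37) and ZEB2 (-0.12, adjusted p = 0.47) were not called.

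Of 39 amino acid stress response genes 16 were lower and 0 higher, but 2 of them, SLC38A2 and CEBPB, fell in all 6 pairs, and the median was -0.37 in Hs578 and 0.04 in TT642. SESN2 had a log2 fold change of -1.29 in Hs578 and close to 0 in TT642, and GDF15 one of -2.02 and 0.26, and both differences between lines were called (adjusted p = 0.00038 each). Of 33 hypoxia and glycolysis genes 13 were higher and 3 lower, with medians of 0.43 in Hs578 and 0 in TT642. P4HA1 and P4HA2, collagen prolyl hydroxylases, TPI1 and PKM rose in all 6 pairs. For TPI1 the log2 ratios in the TT642 pairs were only 0.03 to 0.05. Its effect was 0.71 in Hs578 and 0.035 (SE 0.086) in TT642. Of 33 mitosis genes 8 were lower and 0 higher, and ECT2, KIF23 and CENPE fell in all 6 pairs. Of 36 DNA replication genes 4 were lower and 1, CCNE1, higher (13.9% called, under the 21.2% of all genes). Of them GINS4 and RFC3 fell in all 6 pairs. Calls were lost under 13 alternatives for CENPE, 6 for KIF23, 7 for RFC3 and 9 for CEBPB. The median of the mitosis list was -0.03 in Hs578 and -0.21 in TT642, and that of the replication list 0.09 and -0.20. The Hs578 parental pair had medians of -0.86 for mitosis and -0.75 for replication genes. In bulk samples, fewer cells of a kind and less RNA per cell cannot be told apart.

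Of 32 interferon-stimulated genes 1, IFI27, rose and 4 fell, and the median was -0.34. In all, 10 of the 32 were lower in all 6 pairs, called or not, beside 5.49% of all genes tested. The parental medians of this list were -0.10 in Hs578 and -0.85 in TT642. RSAD2, IFIH1 and EIF2AK2 fell in all 6 pairs, and RSAD2 was also lower in both parental pairs, by log2 ratios of -1.22 and -1.41. The p53 target list had 2 genes higher and 1 lower of 24, with 0 moving in all 6 pairs. Of 14 genes of small RNA processing 3 were lower and 1 higher, and AGO2, the slicing Argonaute protein, fell in all 6 pairs (-0.36, adjusted p = 0.0030). AGO2 had a log2 ratio of -0.91 in the Hs578 parental pair. Of 23 SWI/SNF subunits 3 were higher and 2 lower, and SMARCB1 was not called (0.18, adjusted p = 0.053). Of 11 basal breast genes EGFR and ITGA6 fell, and of 10 epithelial genes LSR and SPINT1 rose. These are 18.2% and 20% of the lists, not above the 21.2% of all genes called. The basal list had a median of 0.16 in Hs578 and -0.09 in TT642. Of 10 breast hormone receptor and luminal genes, 3 blood cell markers and 2 endothelial markers tested, 0 were called by edgeR, with 3, 0 and 0 at an unadjusted p under 0.05. Of 7 neural markers TUBB3 rose and MAP2 fell. The summed level of 11 blood cell markers was 65.7 to 67.9 CPM uninduced and 44.9 to 79.6 CPM induced in Hs578, and 13.8 to 17.3 and 12.5 to 14 CPM in TT642. PTPRC was at 0 in every TT642 library and at most 0.28 FPKM in Hs578.

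**Figure D3:**
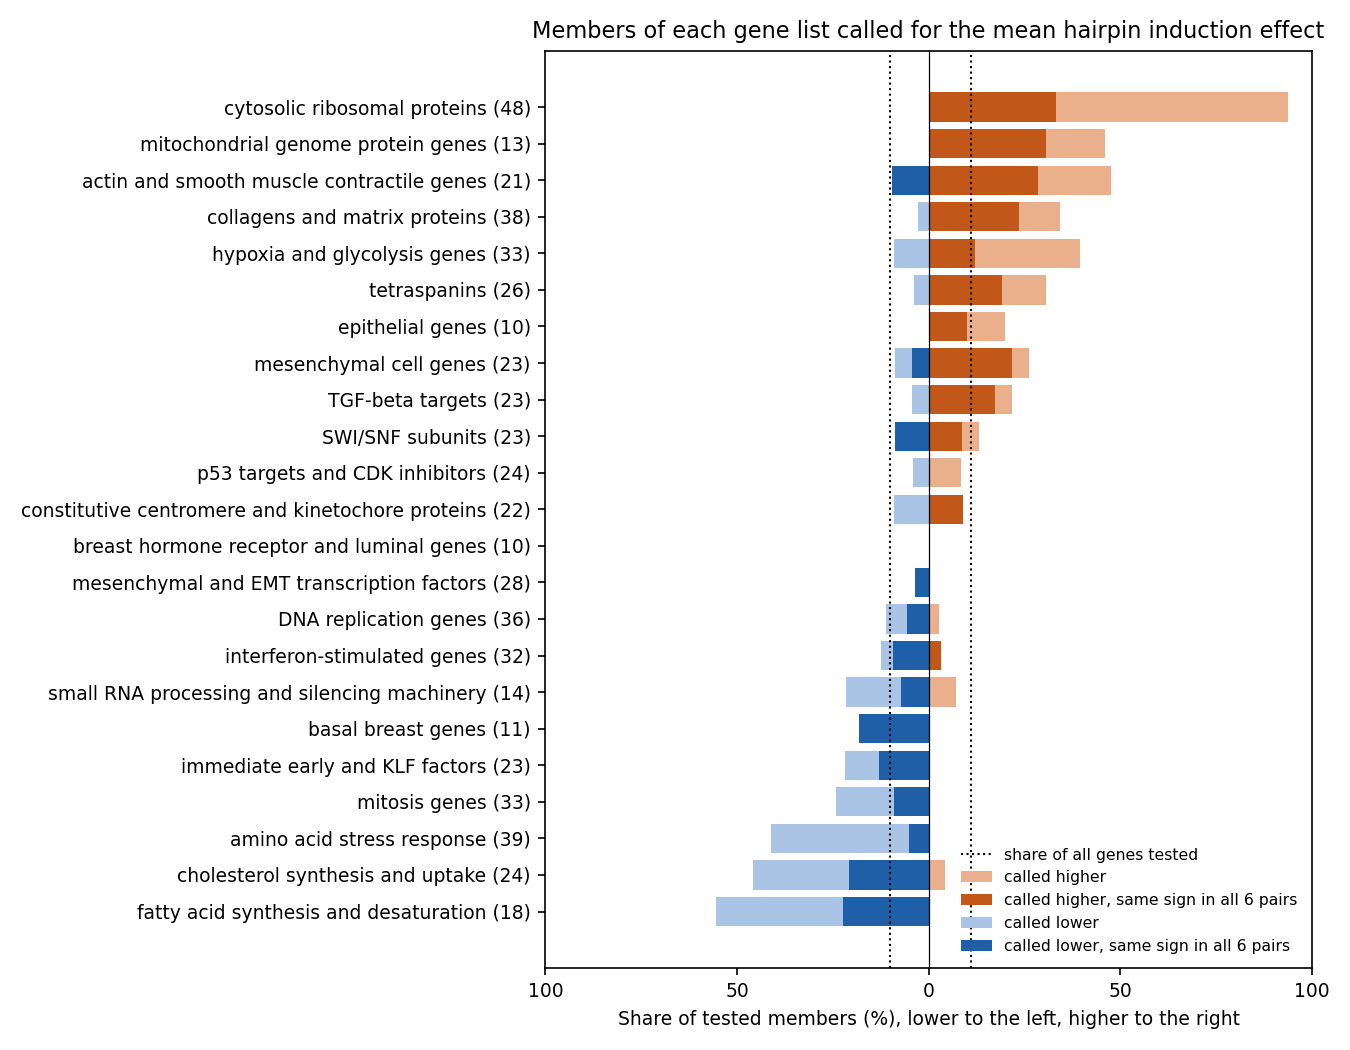
Share of the tested members of each gene list called higher (right, orange) or lower (left, blue) for the mean effect, with the darker part for members that also moved the same way in all 6 pairs. The number tested is in brackets, and lists with at least 10 tested members are shown. Dotted lines mark the shares over all genes tested, 11.1% higher and 10.2% lower, and the lipid synthesis lists reach furthest to the left.

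The ribosomal and mitochondrial lists held many rising genes. Of 48 cytosolic ribosomal protein genes 45 were called higher and 0 lower, with a median of 0.29, which was 0.48 in Hs578 and 0.11 in TT642. Of these, 16 rose in all 6 pairs, led by RPL28, RPS15 and RPS28 (0.48, 0.47 and 0.46). In TT642 hairpin 3 the log2 ratios of these 3 genes were 0.008, 0.03 and 0.002. The Hs578 parental median of the ribosomal list was 0.46. Of 13 protein genes of the mitochondrial genome 6 were higher and 0 lower, with a median of 0.53, and MT-CO2, MT-ATP6, MT-CYB and MT-ND3 rose in all 6 pairs. MT-ATP6 lost its call under 8 alternatives. The median of this list was 0.83 in Hs578 and 0.28 in TT642, beside parental medians of 0.67 and 0.06. The share of counts from the mitochondrial genome was 2.16 to 2.79% uninduced and 3.18 to 5.44% induced in Hs578, and 2.60 to 2.85% and 2.59 to 3.98% in TT642. In parental cells it was 2.73 and 4.16% in Hs578 and 3.28 and 3.31% in TT642. Reads of near-identical copies of these genes may have been split by the counting, whose tool and settings are unknown here.

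Transcript length moved with the result in Hs578. The length implied by the deposited counts and FPKM had a median of 1690 bases in the 715 rising genes, 4502 in the 518 falling genes and 2756 in all genes tested. With the genes split by length into 5 bins of equal size, 747 of the shortest bin were called higher and 38 lower, and 89 of the longest were called higher and 708 lower. Across 14033 genes, which share libraries and are not replicates, Spearman's correlation of length with the log2 ratio was -0.41, -0.35 and -0.42 in Hs578 hairpins 1 to 3 and -0.25 in its parental pair. In TT642 it was -0.01, -0.10 and 0.06 in the hairpin pairs and -0.10 in the parental pair. With the trend on length removed from each library, 1850 genes were called for the mean effect, and 943 were called with the same sign in all 6 pairs. Of the 1233 genes 1227 kept their direction and 800 were called. The median of the ribosomal list fell from 0.29 to 0.10, that of the matrix list was 0.42 in both, and that of the fatty acid list was -0.24. CD82, CENPT, KLF4, SCD, NUTF2 and PRRX1 were called with length offsets as well.

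**Figure D4:**
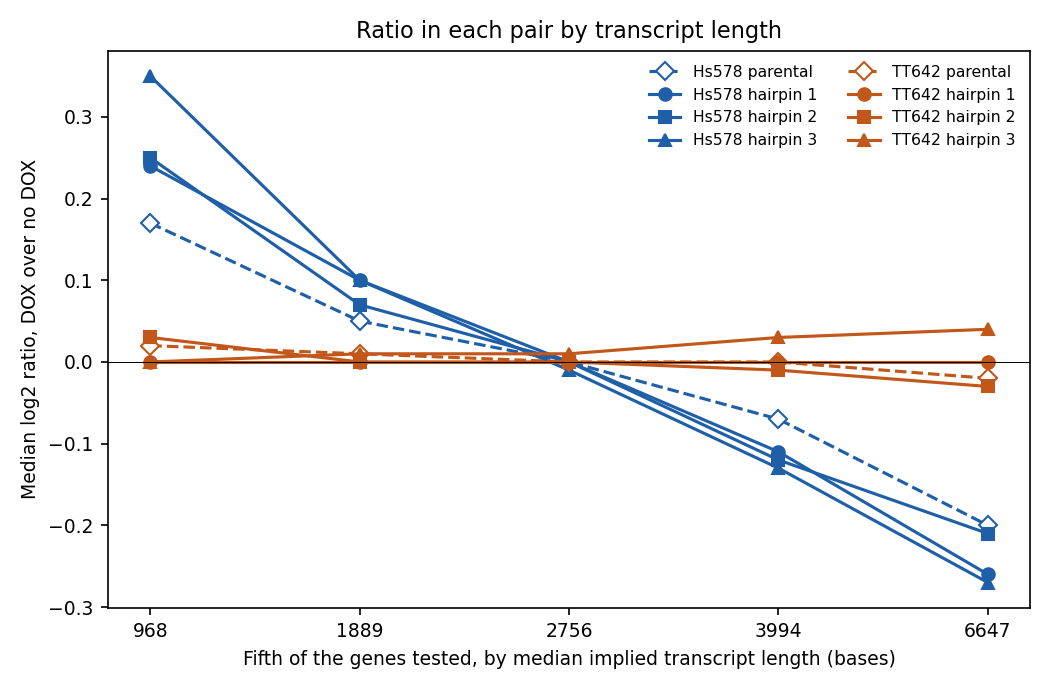
Median log2 ratio of DOX over no DOX in each pair for the genes tested, split into 5 bins of equal size by implied transcript length (median length of each bin in bases on the x axis). Hs578 is blue, TT642 orange, and dashed lines with open diamonds are parental pairs. The Hs578 hairpin pairs run from 0.24 to 0.35 in the shortest bin to -0.21 to -0.27 in the longest, while the TT642 pairs stay between -0.03 and 0.04.

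The shared genes differed in size between lines, mostly with the larger effect in Hs578. The median log2 fold change of the rising genes was 0.47 in Hs578 and 0.20 in TT642, and that of the falling genes -0.45 and -0.21. The difference between lines, which uses the same 12 libraries, was called for 1763 genes (12.6%) in all. Of the 715 rising genes it was called for 148, with the larger effect in Hs578 for 144 and in TT642 for 4, and of the 518 falling genes for 70, all larger in Hs578. TGFBI rose by 1.93 in Hs578 and 0.51 in TT642 on the log2 scale (difference 1.42, SE 0.188, adjusted p = 0.0032). KLF4 fell by 1.34 and 0.67 (difference -0.67, SE 0.163, adjusted p = 0.021). The 4 genes with the larger rise in TT642 were TNS1, GALNT16, PROCR and MYO1D, which were scarce there. TNS1, the focal adhesion protein tensin 1, was at 0.057, 0.146 and 0.278 CPM uninduced and 0.844, 2.04 and 0.538 CPM induced in TT642. The calls of the difference fell to 579 without Hs578 hairpin 3, to 1128 without Hs578 hairpin 2, to 393 without TT642 hairpin 1 and to 430 without TT642 hairpin 3. For CD82 the difference was -0.23 (adjusted p = 0.41), for CENPT -0.14 (adjusted p = 0.59), for SCD -0.24 (adjusted p = 0.27) and for PRRX1 -0.16 (adjusted p = 0.91).

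**Figure D5:**
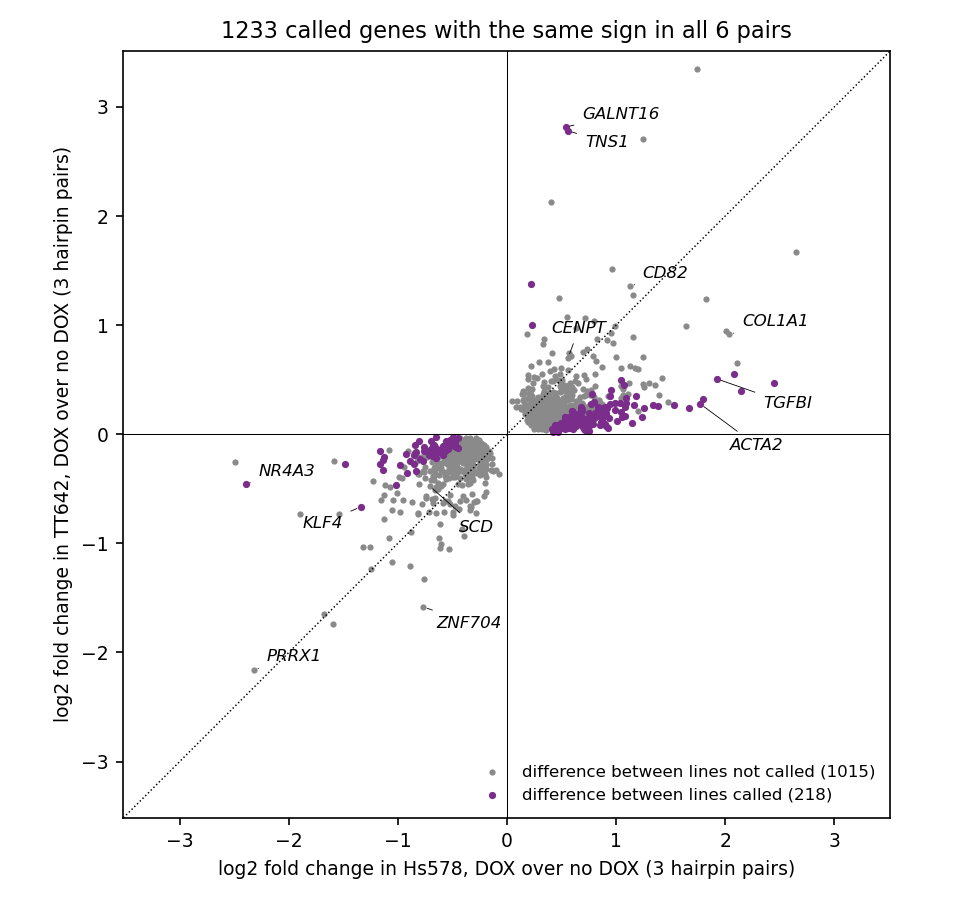
Log2 fold change in Hs578 (x axis) and TT642 (y axis) of the 1233 called genes with the same sign in all 6 pairs, each from 3 hairpin pairs. Purple points are the 218 genes whose difference between lines was called, and the dotted line marks equal effects. Most purple points, such as TGFBI and ACTA2, lie nearer the x axis, while TNS1 and GALNT16 lie near the y axis.

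Finally, genes were ranked by Pearson's correlation with PRRX1 over the 12 hairpin libraries, on log2 CPM centred within each line. The 12 values share the induction, so the ranking is a description. The closest were LIMS1, the focal adhesion adaptor PINCH1 (0.95), GCLM of glutathione synthesis (0.94), PAQR5 (0.94), NCEH1, a cholesterol ester hydrolase (0.94), and PATL1 of messenger RNA decay (0.94). The most opposed were RPN1 of the oligosaccharyltransferase (-0.96), PACSIN2, a membrane-bending protein of endocytosis (-0.96), ARFGAP2 (-0.94) and LMAN2 (-0.94) of transport between endoplasmic reticulum and Golgi, and OAZ2, an antizyme of ornithine decarboxylase (-0.92). OAZ2 and PATL1 each had 1 pair of opposite sign, and OAZ2 and ARFGAP2 lost their calls under 10 and 12 alternatives. The mean log2 fold changes of these 10 genes were small, from -0.62 in PAQR5 to 0.27 in LMAN2. CENPT stood at -0.90, CD82 at -0.89, SCD at 0.89 and KLF4 at 0.85 on the same measure.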

How the data were processed

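PolyA RNA from 16 libraries was sequenced after TruSeq Stranded mRNA preparation, per the labels' protocols. The authors deposited a table of raw counts and a table of FPKM values per gene symbol, both with 1 column per library. Per the submitters' processing notes they used build hg19, with aligner and counter not given in the sources used here. Total counts ran from 13461527 to 24672906 per library. Per library, PRRX1 was counted 545 times or more, and intervals on such counts cover counting error only.

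From the counts, edgeR 4.0.16 (R 4.3.3) was fitted to 14035 of 20114 genes left by its filter on low counts, with TMM scaling and robust quasi-likelihood moderation. The design held a term for each of the 8 pairs and a doxycycline effect for the hairpin and the parental pairs of each line, leaving 4 residual degrees of freedom. The mean effect over lines, the difference between lines (Hs578 minus TT642), the effect net of the parental pairs and the mean parental effect were tested, with Benjamini-Hochberg adjustment over all genes and a call at 0.05. Log2 ratios of single pairs used TMM-scaled log2 CPM with a prior count of 2. The code was tested on simulated data.

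Pairs were taken from the line and hairpin number in the titles, since each number marks the same derived line with and without DOX. Deviations of same-numbered libraries from their group means correlated at 0.44, 0.42 and 0.42 in TT642 and at 0.13, -0.03 and 0 in Hs578. No 2 libraries of a group agreed within sampling noise.

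The members and gene lists were chosen with earlier results of these data known. Named genes are PRRX1, PRRX2, CD82, CENPT, KLF4 and SCD, together with 4 further kinds. Of genes called and of the same sign in all 6 pairs, with mean log2 CPM not under 2, these are the 10 per direction with the largest mean effect, the 6 per direction with both parental log2 ratios under 0.2 in size, and the 6 with both at least 0.3 in the hairpin direction. Up to 3 members of each of 27 gene lists follow, and the 5 genes most and least like PRRX1. Other members named with a list were chosen after their values were seen. One list member is not reported here.

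Alternatives were no replicate block, DESeq2 1.42.0, relative log expression scaling, no filter, no robust moderation, limma 3.58.1 on log2(FPKM + 1) and log2(FPKM + 0.1), 1 effect common to both lines, the hairpin libraries alone, and leaving out each hairpin pair or hairpin number. Length offsets and the CCAAT motif were added after the data were seen. Promoters are from RefSeq (GRCh38.p14).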

Additional observations from a re-analysis of the deposited data

Results flagged for a closer look

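For 21 of the genes named by the rule, and for the 4 shared genes with a larger rise in TT642, the log2 effect differed between lines by edgeR's test of the difference itself (Hs578 minus TT642, adjusted over all genes). Of all genes tested, 12.6% did. Rising genes with a larger effect in Hs578 were TGFBI, with a difference of 1.42 (adjusted p = 0.0032), ACTA2 with 1.5 (0.023), TENM2 with 1.43 (0.0075), EFEMP2 with 1.26 (0.0076) and NUTF2 with 0.41 (0.019). The matrix and contractile genes SPARC, MYL9 and TGFB1I1 differed by 0.62, 0.89 and 0.50, and the collagen hydroxylases P4HA1 and P4HA2 by 0.80 and 0.72. TPI1, CD81 and RPL28 differed by 0.68, 0.45 and 0.65.

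Falling genes with a larger effect in Hs578 were KLF4, with a difference of -0.67 (adjusted p = 0.021), KIAA1211 with -1.21 (0.016), SLC30A1 with -0.56 (0.021) and NR4A3 with -1.94 (0.0053). The lipid synthesis genes ACACA and SQLE differed by -0.40 (0.048) and -0.57 (0.0093), SLC38A2 by -0.70 (0.015) and ITGA6 by -0.90 (0.011).

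A larger rise in TT642 was seen for TNS1, whose difference was -2.22 (adjusted p = 0.043, with 0.56 in Hs578 and 2.78 in TT642), GALNT16 with -2.28 (0.029), PROCR with -0.78 (0.024) and MYO1D with -1.15 (0.042). The levels of TNS1, GALNT16 and MYO1D in uninduced TT642 cells were under 1 CPM.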

How the results depend on the processing

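Besides PRRX1, 85 named genes were called for the mean effect. Of these, 34 were called under every alternative run, 13 lost the call under at least 6 of at most 19 alternatives, and 0 reversed in sign. The counts moved more. The 2981 calls of the mean effect became 483 with 1 common effect and 1850 with length offsets, and ran from 1462 to 2580 with pairs left out. They were 1462, 1736 and 1603 without hairpin 1, 2 or 3, 1854 without Hs578 hairpin 3 and 1707 without TT642 hairpin 1. The 1802 genes of the same sign in all 6 pairs became 520 with a log2 ratio of at least 0.1 in each pair and 164 with at least 0.2. With pairs left out they numbered 2080 to 3645 (3123 without TT642 hairpin 3), since fewer pairs had to share a sign. The genes both called and of 1 sign numbered 920 to 1656 with pairs left out. PRRX1 ran from -2.45 to -2.04 with pairs left out, and was not called without hairpin 1 (-2.07, adjusted p = 0.088).

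The 1763 calls of the difference between lines became 1154 with DESeq2, 1049 with limma on log2(FPKM + 0.1) and 688 with length offsets, and ran from 179 to 1924 with pairs left out. The 163 parental calls became 259 with DESeq2, 299 without the filter, 80 without robust moderation, 0 and 0 with limma on FPKM, and 85 with length offsets. They ran from 25 to 583 with hairpin pairs left out, with 260 and 49 without Hs578 hairpin 1 or 2, and 25, 389 and 45 without TT642 hairpin 1, 2 or 3. The net effect had 20 calls with DESeq2 and 0 to 1 with pairs left out. The cause of these shifts was not tested.

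Without the replicate block, which ignores the pairing, 2122 genes were called for the mean effect, 1001 of them with 1 sign in all 6 pairs, 735 for the difference between lines, 2 for the parental effect and 0 for the net effect, and PRRX1 stood at -2.15. Of the 1233 genes 986 stayed called. Each parental pair is 1 library against 1, so no depth of sequencing gives it a replicate error.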
